A study of Mus musculus with 12 samples.

Results

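Of the 11018 genes tested, 22 (0.2% of those tested) responded to bexarotene by different amounts in the liver cells of mice with and without hepatic RXRα. The members described here are all 12 libraries of the study. For each gene the quantity is the response of the knockout (with minus without bexarotene) minus the response of the floxed mice, on the log2(TPM + 1) scale. TPM is coverage per transcript length as a share of the library. The table held 26748 gene identifiers, and the test took the 11018 that reached 1 TPM in 3 or more libraries. A gene is called at an adjusted p under 0.05 (limma, Benjamini-Hochberg adjustment over all 11018). By the ratio of the response in the knockout to that in floxed mice, the 22 genes fell into 9 whose response was lost in the knockout, 1 reduced, 2 reversed, 1 enlarged and 9 gained. Among these, Cidec, Gpat3, Maats1os and Mgst2 passed the filter on low values only through the group in which they were high. A further 18 genes were called in both genotypes in the same direction with no difference called. The direction of the 22 was even, with 11 higher in the knockout (0.0998% of genes tested) and 11 lower (0.0998%).

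RNA labelled as coming from hepatocytes of male C57BL/6 mice was sequenced in 4 groups of 3 libraries. They were mice with a hepatic knockout of Rxra given bexarotene for 5 days (100 mg/kg daily), the same knockout without the drug, floxed mice with the same dosing, and floxed mice without it. Floxed mice carry recombination sites in the gene, which is otherwise intact. The sources used here do not give the Cre line that made the knockout, the animals' age or the vehicle. Whether the libraries of a group came from separate animals is not in the labels. The p-values therefore speak only of the spread among these samples, and that spread may be technical.

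Retinoid X receptors are nuclear receptors that bind DNA in pairs with partners such as PPARα, LXR, FXR, CAR, PXR and the thyroid hormone and retinoic acid receptors. RXRα is the main form in hepatocytes, and RXRβ and RXRγ belong to the same family. Bexarotene is a rexinoid, a drug that binds the ligand pocket of RXR and switches on those pairs that respond to the RXR ligand. In liver these receptors control fatty acid oxidation, drug metabolism, lipid synthesis, bile acids and the breakdown of retinoic acid.

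Several libraries stood apart or close together before any gene was compared. The 3 treated knockout libraries and floxed controls 1 and 3 were near copies, with a spread beyond counting noise of 0.0483 to 0.0780 log2, against 0.158 to 0.483 for the other 8 pairs within groups. Each close set was averaged, which left 9 samples: 1 treated knockout, 3 knockout controls, 3 treated floxed samples and 2 floxed controls. The treated knockout therefore has no spread of its own and takes the spread of the other groups. Treating the 12 libraries as separate samples called 651 genes (5.91%) for the difference in place of 22, 285 higher (2.59%) and 366 lower (3.32%). Knockout control 5 differed from knockout controls 1 and 2, and without it 210 genes were called, among them all 22. The count was 6 without treated floxed library 1, 7 without treated floxed library 3, 8 without knockout control 2, 11 without floxed control 4 and 13 without floxed controls 1 and 3. Library 4 stood apart from libraries 1 and 3 in both floxed groups: macrophage markers summed to 72.5 TPM in it, against 20.3 and 24.0 TPM, with bexarotene and to 97.5 TPM, against 28.4 and 32.3 TPM, without. Without library 4 of both floxed groups, an alternative chosen after seeing the data, 0 genes were called by limma and 699 had an unadjusted p under 0.05, against 1029 with them. Ehhadh, Thrsp, Cyp2c37 and Cyp2c29 were called under every other alternative tried, with adjusted p of 0.0624 to 0.0797 by limma under that one. The remaining called genes lost their call in 2 to 11 of the 20 alternatives, and no sign turned in any. Between 9713 and 10470 genes per library reached 1 TPM, and the 20 highest genes took 36.3% to 42.2% of the TPM. Depth is unknown, because TPM keeps no read totals.

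Rxra itself checked the genotype labels. It stood at 27.8, 26.1 and 26.4 TPM in treated knockout libraries, 31.3, 33.1 and 26.9 TPM in knockout controls, 82.2, 85.3 and 79.6 TPM in treated floxed libraries and 79.5, 79.9 and 86.0 TPM in floxed controls. Every knockout library was below every floxed library, and a gene-level value does not tell a transcript that lacks the deleted part from an intact one. The drug response of Rxra differed between the genotypes by -0.16 ± 0.20 log2 (SE; 95% interval -0.63 to 0.30; limma adjusted p = 0.849). The difference was 0.05 ± 0.32 for Rxrb (adjusted p = 0.978) and 0.04 ± 0.29 for Rxrg (adjusted p = 0.980), both by the same limma fit.

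**Figure D1:**
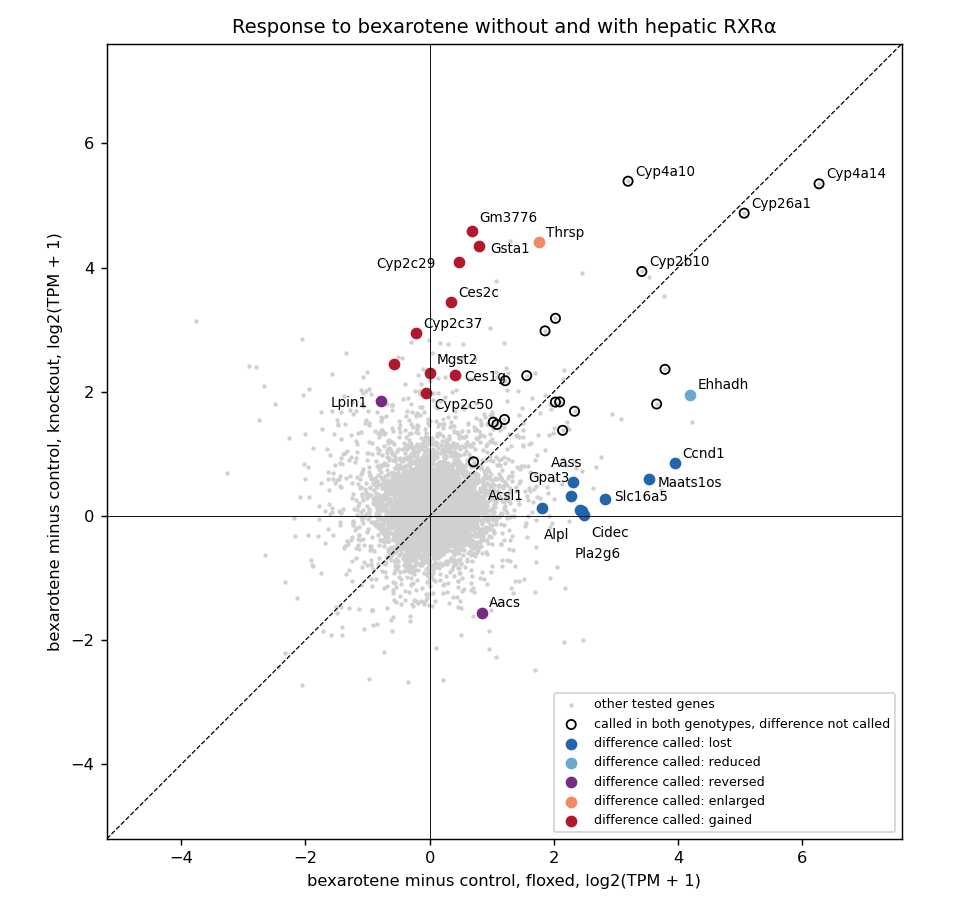
Response to bexarotene in the knockout (vertical axis) against that in floxed mice (horizontal axis), in log2(TPM + 1), for all 11018 tested genes. Filled points are the genes whose response differed between genotypes, coloured by class, open circles the 18 genes called in both without a called difference, and the dashed line marks equal responses. Ehhadh lies at 1.95 and 4.20, Cyp2c29 at 4.08 and 0.47, and Cyp26a1 close to the line at 4.88 and 5.07.

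The promoters of Cyp26a1, Ehhadh, Cyp2c29 and Cyp2c50 are shown because these genes stand for the responses that passed the test in both genotypes (Cyp26a1), were reduced (Ehhadh) or were gained in the knockout. Each run is the RefSeq window from 250 bases before to 50 after the gene's start (build GRCm38.p6), 5′ to 3′ on the gene's strand. Cyp26a1 is at chr19:37697558-37697857 (+), Ehhadh at chr16:21787785-21788084 (-), Cyp2c29 at chr19:39286835-39287134 (+) and Cyp2c50 at chr19:40089429-40089728 (+). Capitals mark a nuclear receptor half-site, searched on either strand as AGGTCA, with an inner T as AGTTCA, with a leading G as GGGTCA and with both as GGTTCA, and in Cyp26a1 the whole direct repeat with its 5-base spacer.
Cyp26a1: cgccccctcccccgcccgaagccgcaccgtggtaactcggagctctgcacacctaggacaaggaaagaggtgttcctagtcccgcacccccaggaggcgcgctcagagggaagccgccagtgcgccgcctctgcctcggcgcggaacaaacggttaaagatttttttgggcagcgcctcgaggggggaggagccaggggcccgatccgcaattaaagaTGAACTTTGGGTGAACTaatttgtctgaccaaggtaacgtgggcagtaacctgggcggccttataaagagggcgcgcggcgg
Ehhadh: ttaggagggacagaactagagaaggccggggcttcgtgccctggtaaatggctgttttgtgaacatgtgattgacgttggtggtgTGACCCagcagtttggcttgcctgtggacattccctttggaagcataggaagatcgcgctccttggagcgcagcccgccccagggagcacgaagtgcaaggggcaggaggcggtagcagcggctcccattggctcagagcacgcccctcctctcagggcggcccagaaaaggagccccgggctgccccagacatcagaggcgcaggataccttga
Cyp2c29: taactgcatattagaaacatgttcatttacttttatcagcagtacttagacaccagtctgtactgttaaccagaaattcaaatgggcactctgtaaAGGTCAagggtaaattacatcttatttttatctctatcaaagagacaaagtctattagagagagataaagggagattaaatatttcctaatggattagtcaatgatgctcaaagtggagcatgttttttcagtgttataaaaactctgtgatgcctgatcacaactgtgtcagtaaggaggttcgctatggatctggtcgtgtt
Cyp2c50: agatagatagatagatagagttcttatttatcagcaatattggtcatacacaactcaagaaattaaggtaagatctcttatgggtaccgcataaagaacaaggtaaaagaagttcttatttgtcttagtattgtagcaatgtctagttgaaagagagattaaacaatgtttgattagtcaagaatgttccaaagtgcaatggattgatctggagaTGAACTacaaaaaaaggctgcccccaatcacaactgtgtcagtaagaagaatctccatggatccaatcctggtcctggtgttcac
The Cyp26a1 window held the repeat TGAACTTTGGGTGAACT, which began 32 bases before the start. Such a repeat with a 5-base spacer (DR5) was in 0.0974% of 32851 promoter windows of the same length. Half-sites were common: 43.7% of all windows held at least 1, as did 15 of the 36 windows (41.7%) found for 31 of the 39 named genes looked up (those called for the difference and those called in both genotypes). None of these 36 windows held a direct repeat with a 1-base spacer (DR1, in 0.222% of all windows) or a 4-base spacer (DR4, in 0.0822%). A match describes letters in this window and is neither a tested binding site nor a cause.

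Of the 10 genes with a lost or reduced response, Ehhadh and Acsl1 were on the list of PPARα targets and Cidec on that of lipid droplet and lipoprotein genes. Ehhadh, the bifunctional enzyme of peroxisomal beta-oxidation, stood at 365, 362 and 367 TPM in treated knockout libraries and 92.4, 98.8 and 89.9 TPM in knockout controls. In floxed mice it stood at 1837, 1652 and 1772 TPM with bexarotene and 98.9, 101 and 89.6 TPM without. The control levels of the genotypes overlapped, while every treated knockout library was below every treated floxed library. Ehhadh rose in the knockout by 1.95 ± 0.14 log2 and in floxed mice by 4.20 ± 0.11 (SE), a difference of -2.25 ± 0.18 (limma adjusted p = 0.00508). The treated knockout reached 20.8% of the treated floxed level.

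Acsl1 couples long-chain fatty acids to coenzyme A. It stood at 241, 242 and 234 TPM in treated knockout libraries, 203, 245 and 207 TPM in knockout controls, 678, 646 and 695 TPM in treated floxed libraries and 198, 203 and 182 TPM in floxed controls. Only the treated floxed libraries stood high, and the treated and control knockout libraries overlapped. The responses were 0.13 ± 0.16 log2 in the knockout (adjusted p = 0.895) and 1.81 ± 0.12 in floxed mice (adjusted p = 3.40e-04), a difference of -1.68 ± 0.20 (adjusted p = 0.0227, all limma). Cidec, a lipid droplet protein that promotes droplet growth, had 0.42, 0.21 and 0.60 TPM in treated knockout libraries, 0.65, 0.10 and 0.51 TPM in knockout controls, 7.98, 7.69 and 8.67 TPM in treated floxed libraries and 0.48, 0.83 and 0.58 TPM in floxed controls. The difference was -2.48 ± 0.32 log2 (limma adjusted p = 0.0368). Gpat3, which starts glycerolipid synthesis, had 0.57, 0.44 and 0.43 TPM in treated knockout libraries and 0.23, 0.19 and 0.14 TPM in knockout controls, against 8.14, 8.01 and 7.41 TPM with and 0.89, 0.87 and 0.77 TPM without the drug in floxed mice. Cidec and Gpat3 were under 1 TPM in every library outside the treated floxed group. They therefore passed the filter of 1 TPM in 3 libraries only through that group. Neither was called with the filter of 5 TPM or with a pseudocount of 0.1 TPM. The Gpat3 difference was -1.96 ± 0.24 log2 (limma adjusted p = 0.0242). Its treated knockout libraries stood above their own controls, by 0.32 ± 0.19 log2 without a call (limma adjusted p = 0.702). The pseudocount of 1 TPM understates a rise at such low values.

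Cyclin D1 and an enzyme of lysine breakdown were also classed as lost, though, as in Gpat3, their treated knockout libraries stood above their own controls. The ratio of responses was 0.214 for Ccnd1 and 0.238 for Aass, under the limit of 0.25. Without knockout control 5 Aass was classed as reduced. With a pseudocount of 0.1 TPM neither gene was called (limma adjusted p = 0.0592 for Ccnd1 and 0.0549 for Aass). The pseudocount of 1 TPM understates the knockout rise of Ccnd1, whose mean went from 0.703 to 2.04 TPM. Ccnd1, the cyclin that drives entry into the cell cycle, stood at 2.05, 2.02 and 2.06 TPM in treated knockout libraries, 0.70, 0.92 and 0.49 TPM in knockout controls, 42.5, 43.7 and 41.3 TPM in treated floxed libraries and 1.62, 1.24 and 2.26 TPM in floxed controls. Treated knockout libraries were above their own controls but within the range of floxed controls, at 4.81% of the treated floxed level. The response was 0.84 ± 0.22 log2 in the knockout (adjusted p = 0.211) and 3.95 ± 0.18 in floxed mice (adjusted p = 4.67e-05), a difference of -3.10 ± 0.28 (adjusted p = 0.00846, all limma). Of the 35 tested genes on a cell cycle list, Ccnd1 was the only one called for the difference (background 0.2%). The median difference of the list was 0.20 log2. Aass, the first enzyme of lysine breakdown, had 195.2, 195.3 and 194 TPM in treated knockout libraries, 111, 140.5 and 149.5 TPM in knockout controls, 504, 414 and 449 TPM in treated floxed libraries and 88.2, 86.7 and 94.8 TPM in floxed controls. Its difference was -1.76 ± 0.25 log2 (limma adjusted p = 0.0492), the highest p among the called genes. The gene just outside, Cdcp1, had an adjusted p of 0.0512 by limma, and 18 genes lay between 0.05 and 0.1.

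In 3 of the lost genes, Slc16a5, Pla2g6 and Alpl, the knockout controls were called above the floxed controls. Aass, given above, also had every knockout control above every floxed control, by 0.54 log2, without a call (limma adjusted p = 0.114). Slc16a5, a monocarboxylate transporter, had 10.4, 10.5 and 11.85 TPM in treated knockout libraries, 7.67, 8.60 and 10.65 TPM in knockout controls, 22.6, 25.7 and 19.5 TPM in treated floxed libraries and 1.83, 2.09 and 2.74 TPM in floxed controls. Without bexarotene the knockout was higher by 1.57 log2 (adjusted p = 0.00402), and with it the knockout was at -0.98 (adjusted p = 0.0983, both limma). Pla2g6, a calcium-independent phospholipase, and Alpl, the tissue-nonspecific alkaline phosphatase, had the same form. Pla2g6 had 30, 27.0 and 30.2 TPM in treated knockout libraries, 35.2, 27.0 and 21.4 TPM in knockout controls, 52.0, 62.6 and 61.4 TPM in treated floxed libraries and 9.69, 10.95 and 9.42 TPM in floxed controls. Alpl had 21.8, 19.7 and 21.0 TPM in treated knockout libraries, 24.6, 20.5 and 14.4 TPM in knockout controls, 39.0, 40.8 and 41.7 TPM in treated floxed libraries and 7.43, 5.79 and 6.93 TPM in floxed controls. In both genes the treated and control knockout libraries overlapped, at levels between the floxed groups. The differences between responses were -2.55 ± 0.30 log2 for Slc16a5, -2.37 ± 0.32 for Pla2g6 and -2.32 ± 0.32 for Alpl (limma adjusted p = 0.0227, 0.0416 and 0.0453).

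Maats1os, an RNA annotated on the strand opposite to Maats1, was listed at 0 TPM in all 3 knockout controls and all 3 floxed controls. It was listed at 0, 0.80 and 0.71 TPM in treated knockout libraries and at 13.5, 8.56 and 10.1 TPM in treated floxed libraries. Maats1os passed the filter of 1 TPM in 3 libraries only through the treated floxed group. It was not called with the filter of 5 TPM or with a pseudocount of 0.1 TPM. No fold is given against groups listed at 0. Whether the authors' quantification used strand is not stated, so reads of the gene and its antisense partner cannot be told apart.

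The responses gained in the knockout centred on drug-metabolising enzymes. The word gained rests on the ratio of fitted responses and does not mean that floxed mice had none. In Cyp2c29, Ces1g and Gsta1 every treated floxed library stood above every floxed control, without a call. In the other gained genes the treated and control floxed libraries overlapped. In TPM, Cyp2c29 rose by 1208 in the knockout and by 840 in floxed mice. Cyp2c29, a cytochrome P450 of foreign compound and fatty acid metabolism, stood at 1289, 1253 and 1307 TPM in treated knockout libraries and 87.1, 69.5 and 69.0 TPM in knockout controls. In floxed mice it stood at 2935, 3131 and 2929 TPM with bexarotene and 2079, 2148 and 2204 TPM without. The 4 groups did not overlap, and the treated knockout lay between its own controls and the floxed controls. Cyp2c29 rose in the knockout by 4.08 ± 0.17 log2 (adjusted p = 3.17e-05). In floxed mice the response was 0.47 ± 0.13 (adjusted p = 0.132), and the difference was 3.61 ± 0.21 (adjusted p = 0.00122, all limma).

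Cyp2c37 and Cyp2c50, close relatives of Cyp2c29, were also lowest in knockout controls, and their floxed response was not called. Cyp2c37 had 34.6, 34.5 and 36.7 TPM in treated knockout libraries, 3.88, 3.89 and 3.44 TPM in knockout controls, 189.9, 182 and 184 TPM in treated floxed libraries and 267, 276 and 173 TPM in floxed controls. Its difference was 3.16 ± 0.29 log2 (limma adjusted p = 0.00846), and the treated knockout was still at 15.8% of the floxed control level. Cyp2c50 had 659.9, 665 and 652 TPM in treated knockout libraries, 164, 166 and 170.2 TPM in knockout controls, 948, 986 and 1038 TPM in treated floxed libraries and 1171, 1189 and 908 TPM in floxed controls. Its difference was 2.04 ± 0.21 log2 (limma adjusted p = 0.0159), and the treated knockout was at 63.1% of the floxed control level. The transcripts of Cyp2c37 and Cyp2c50 were 95.8% identical, so reads can be split between them and each value is uncertain. Cyp2c29 and Cyp2c37 were 79.7% identical.

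The carboxylesterases Ces2c and Ces1g, which hydrolyse ester drugs and lipids, were likewise lowest in knockout controls. Ces2c had 57.15, 52.7 and 59.9 TPM in treated knockout libraries, 5.23, 4.48 and 3.35 TPM in knockout controls, 86.25, 90.25 and 85.5 TPM in treated floxed libraries and 84.05, 89.0 and 54.8 TPM in floxed controls. It rose in the knockout by 3.44 ± 0.27 log2, and the difference was 3.11 ± 0.35 (limma adjusted p = 0.0202). Ces1g had 113, 110.2 and 113 TPM in treated knockout libraries, 27.3, 22.1 and 19.1 TPM in knockout controls, 218, 231 and 253 TPM in treated floxed libraries and 168, 182 and 175 TPM in floxed controls. It rose in the knockout by 2.26 ± 0.20 log2, and the difference was 1.85 ± 0.25 (limma adjusted p = 0.0416). Ces2a, a further carboxylesterase chosen after its values were seen, had a difference of 0.08 (limma adjusted p = 0.952), and its knockout controls differed from the floxed controls by -0.12 log2 (0.794). In Cyp2c29, Cyp2c37, Cyp2c50, Ces2c and Ces1g the knockout controls were called below the floxed controls, at 1.68% (Cyp2c37) to 16% (Cyp2c50) of their level. The difference between responses equals the genotype difference with the drug minus that without it, so these low control levels are part of the same quantity.

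The glutathione transferases Gsta1 and Mgst2, and Gm3776, had gained responses, while other enzymes of the kind did not pass. Gsta1, an alpha-class enzyme that conjugates glutathione to reactive compounds, had 125, 123 and 127 TPM in treated knockout libraries, 5.62, 4.56 and 5.41 TPM in knockout controls, 14.25, 13.2 and 17.8 TPM in treated floxed libraries and 7.54, 5.01 and 10.55 TPM in floxed controls. The control levels of the genotypes overlapped, and the treated knockout stood above every other library, at 832% of the treated floxed level. Gsta1 rose in the knockout by 4.35 ± 0.28 log2, with 0.80 ± 0.22 in floxed mice (adjusted p = 0.125), and the difference was 3.55 ± 0.35 (adjusted p = 0.0118, all limma). The predicted gene Gm3776 had a transcript 99.5% identical to that of Gsta1, so reads can be split between the pair. The summed level of Gsta1 and Gm3776 was 270.1, 254 and 259.8 TPM in treated knockout libraries, 10.9, 9.80 and 9.21 TPM in knockout controls, 27.3, 24.8 and 30.6 TPM in treated floxed libraries and 11.47, 10.02 and 22.4 TPM in floxed controls. Gsta2, whose transcript was 97.2% identical to that of Gsta1, was called in both genotypes. It had 158, 163 and 162 TPM in treated knockout libraries, 46.0, 48.2 and 54.5 TPM in knockout controls, 207, 194 and 206 TPM in treated floxed libraries and 40.1, 40.9 and 38.1 TPM in floxed controls. With Gsta2 added the sum was 428, 417 and 422 TPM in treated knockout libraries, 56.8, 58.0 and 63.7 TPM in knockout controls, 234, 219 and 236.5 TPM in treated floxed libraries and 51.6, 50.9 and 60.5 TPM in floxed controls. The value of each of the 3 genes is uncertain, and in the sum of all 3 the treated libraries of both genotypes stood above all controls. Differences below 0 were found for Gsta2 (-0.65), Gstt1 (-1.01; limma adjusted p = 0.188) and Gstt3 (-0.19; 0.886), and Gstm1 to Gstm4 had 1.06 to 1.63 without a call; Gstt1 and the Gstm genes were chosen after their values were seen. Mgst2, a microsomal glutathione transferase, was listed at 4.90, 6.46 and 7.63 TPM in treated knockout libraries and 0.28, 0.75 and 0.49 TPM in knockout controls, and at 0 in all 6 floxed libraries. Mgst2 passed the filter of 1 TPM in 3 libraries only through the treated knockout, whose libraries are near copies. It dropped out with the filter of 5 TPM and was not called with a pseudocount of 0.1 TPM. No fold between genotypes is given for Mgst2. The ninth gained gene had no name in the tables used.

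**Figure D2:**
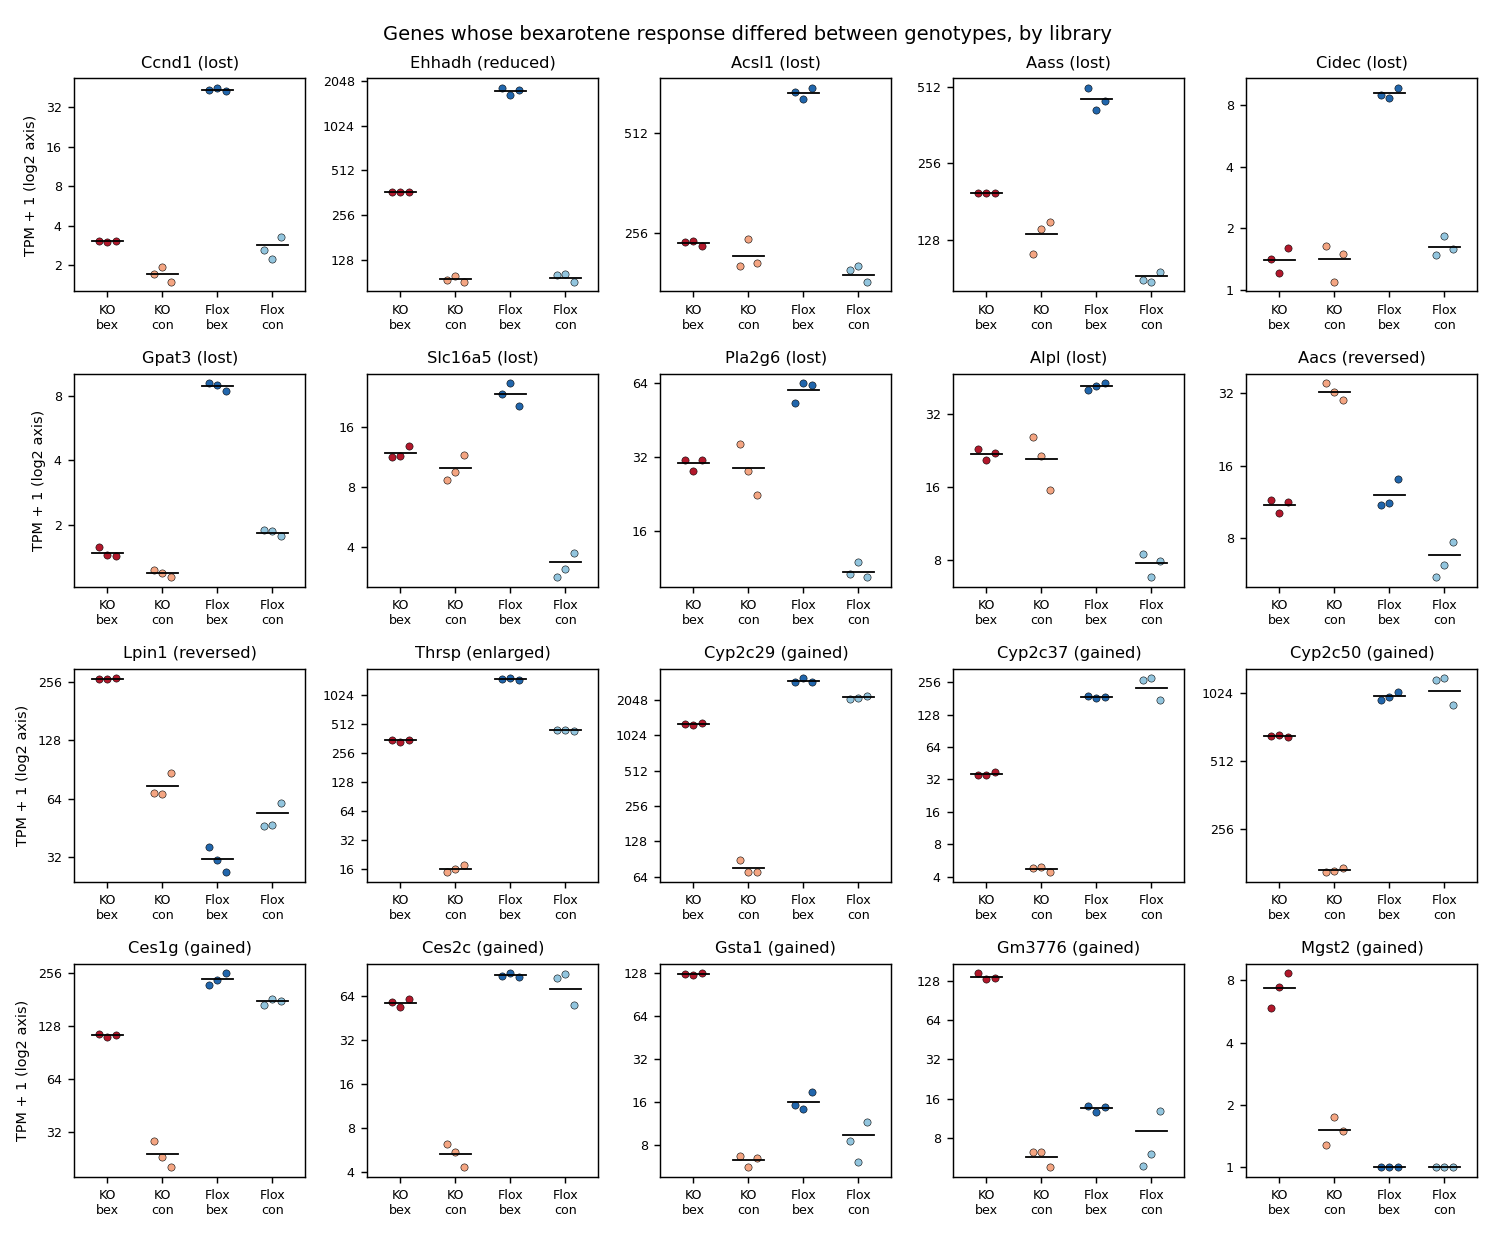
TPM + 1 (log2 axis) of 20 named genes with a called difference in each of the 12 libraries, with knockout groups left of floxed groups and treated left of control. Points are libraries and bars the mean TPM of a group's samples, plus 1, with near-copy libraries averaged first. In the top 2 rows the treated floxed libraries stand apart, except for Aacs, and in Cyp2c29, Cyp2c37, Cyp2c50, Ces1g and Ces2c the knockout controls are lowest.

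Lipid synthesis genes were called in both directions. Thrsp, a nuclear protein that promotes fatty acid synthesis, was the gene with an enlarged response. It had 347, 331 and 347 TPM in treated knockout libraries, 13.9, 14.96 and 16.6 TPM in knockout controls, 1490, 1508 and 1463 TPM in treated floxed libraries and 442, 440.0 and 433 TPM in floxed controls. The treated knockout was below the floxed controls, at 78.2% of their level, with no overlap among the 4 groups. Thrsp rose by 4.41 ± 0.14 log2 in the knockout and by 1.76 ± 0.11 in floxed mice, a difference of 2.65 ± 0.18 (limma adjusted p = 0.00190). In TPM its increase was smaller in the knockout, 327 TPM against 1050 TPM in floxed mice. Thrsp was the 1 of the 22 genes whose difference in TPM and on the log2 scale had opposite signs.

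The 2 reversed genes were Lpin1 and Aacs. Lpin1, a phosphatidate phosphatase of triglyceride synthesis that also acts as a transcriptional coactivator, had 263, 262 and 265 TPM in treated knockout libraries, 67.5, 66.1 and 85.6 TPM in knockout controls, 34.8, 29.97 and 25.8 TPM in treated floxed libraries and 45.4, 45.7 and 60.0 TPM in floxed controls. The treated knockout was far above, and the treated floxed libraries below, all others. Lpin1 rose in the knockout by 1.84 ± 0.24 log2 (adjusted p = 0.0219), the floxed response was -0.78 ± 0.19 (adjusted p = 0.0845), and the difference was 2.63 ± 0.30 (adjusted p = 0.0223, all limma). Aacs, which activates acetoacetate for lipid synthesis, had 10.5, 9.18 and 10.3 TPM in treated knockout libraries, 34.15, 31.25 and 28.9 TPM in knockout controls, 10.02, 10.2 and 13.1 TPM in treated floxed libraries and 4.52, 5.21 and 6.73 TPM in floxed controls. The treated groups overlapped across genotypes, while the controls stood on either side of them. Aacs fell in the knockout by 1.56 ± 0.22 on the log2 scale (adjusted p = 0.0324), the floxed response was 0.84 ± 0.18 (adjusted p = 0.0586), and the difference was -2.39 ± 0.28 (adjusted p = 0.0227, all limma). The floxed response of both genes missed the threshold, so the word reversed rests on the sign of the fitted values.

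**Figure D3:**
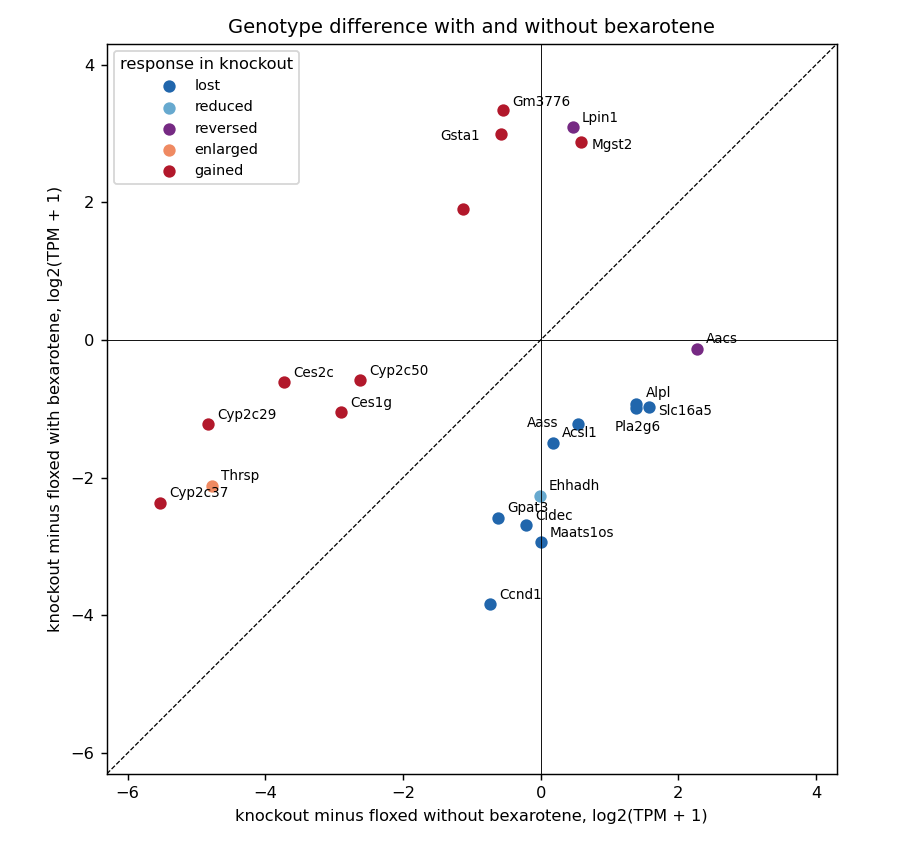
Knockout minus floxed with bexarotene (vertical axis) against the same difference without it (horizontal axis), log2(TPM + 1), for the 22 called genes. Points above the dashed line have a higher response in the knockout. Cyp2c37 lies at -2.36 with and -5.53 without the drug, Ccnd1 at -3.84 and -0.73, and Aacs at -0.13 and 2.27.

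Set out by genotype, 12 of the 22 genes differed between knockout and floxed mice only with the drug, 6 only without it and 4 in both. A genotype difference was called for 1.93% of tested genes with the drug (0.681% higher and 1.25% lower in the knockout) and 3.76% without (1.83% higher and 1.92% lower). The 22 were chosen on the difference between responses, which is made from these same genotype differences, so the split is a description. The 12 included Ccnd1 (-3.84 log2, knockout minus floxed with bexarotene), Cidec (-2.69), Gpat3 (-2.58), Ehhadh (-2.26), Lpin1 (3.09) and Gsta1 (2.99). Cidec, Gpat3, Maats1os and Mgst2, all among the 12, passed the filter on low values only through a treated group. That filter favours a genotype difference with the drug only. The 6 were Slc16a5, Aacs, Pla2g6, Alpl, Cyp2c50 and Ces2c, whose genotype difference with the drug was between -0.13 (Aacs) and -0.98 (Slc16a5 and Pla2g6). The 4 were Ces1g, Thrsp, Cyp2c37 and Cyp2c29, all lower in the knockout under both conditions. A call in 1 condition and not the other is not in itself a difference; that test is the difference between responses given for each gene.

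Cyp26a1, Cyp4a14, Cyp4a10 and Cyp2b10 were among the 18 genes called in both genotypes with no difference called. Cyp26a1, the enzyme that clears retinoic acid and a classical target of the retinoic acid receptors, had 329.9, 322 and 324.5 TPM in treated knockout libraries, 5.82, 9.99 and 17.3 TPM in knockout controls, 154.5, 158.6 and 224 TPM in treated floxed libraries and 6.29, 6.51 and 2.80 TPM in floxed controls. The treated libraries of both genotypes were above all controls. The responses were 4.88 ± 0.53 log2 in the knockout and 5.07 ± 0.42 in floxed mice, a difference of -0.19 with a 95% interval of -1.75 to 1.38 (limma adjusted p = 0.956). The interval holds differences of more than 1 log2 in either direction.

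Cyp4a14 and Cyp4a10, fatty acid omega-hydroxylases and classical PPARα targets, rose in both genotypes from different baselines. Cyp4a14 had 70.2, 67.55 and 67.8 TPM in treated knockout libraries, 0.36, 0.39 and 1.63 TPM in knockout controls, 1153, 1117 and 1763 TPM in treated floxed libraries and 28.95, 28.4 and 8.78 TPM in floxed controls. Its difference was -0.92 (95% interval -2.69 to 0.84; limma adjusted p = 0.768). Cyp4a10 had 288, 289.6 and 304 TPM in treated knockout libraries, 5.20, 4.10 and 10.02 TPM in knockout controls, 1016, 1063 and 1405 TPM in treated floxed libraries and 194.5, 202 and 78.2 TPM in floxed controls. Its difference was 2.20 (0.62 to 3.77; limma adjusted p = 0.377). In both genes the treated knockout was below every treated floxed library. Cyp4a genes are near copies, and reads can be split among them.

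Other members of this group spanned several pathways. Cyp2b10, the classical CAR target, rose by 3.94 log2 in the knockout and 3.42 in floxed mice, with a difference of 0.52 (95% interval -1.06 to 2.10). Nr1i2, the gene of PXR, rose by 0.87 and 0.71, a difference of 0.16 (-0.23 to 0.56). Mfsd2a, a transporter of lysophospholipids, rose by 1.84 and 2.09 (difference -0.26, -0.88 to 0.37).

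Acot2, a mitochondrial acyl-CoA thioesterase, had 3.06, 3.02 and 2.98 TPM in treated knockout libraries, 0.03, 0.07 and 0.39 TPM in knockout controls, 23.8, 19.4 and 21.1 TPM in treated floxed libraries and 1.14, 0.76 and 0.62 TPM in floxed controls. Its difference of -1.85 (95% interval -2.56 to -1.15) missed the threshold (limma adjusted p = 0.0833). Akr1b7, an aldo-keto reductase, had a difference of -1.43 (-2.06 to -0.80; limma adjusted p = 0.132), Gsta2 of -0.65 (-1.08 to -0.21; 0.342) and Cyp4a12b of 1.16 (0.60 to 1.72; 0.180). Of the 18 genes, 5 had an interval within 1 log2 either way, and 8 had an unadjusted p under 0.05. Together with the 22, they leave 205 genes called in floxed mice only and 26 called in the knockout only. For these no difference was called in either direction. In all, 2.12% of tested genes were called in floxed mice and 0.517% in the knockout, shares that include the 205 and the 26.

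The responses of one genotype can be read in the other, since the genotypes share no library. Of 203 genes called higher with bexarotene in floxed mice (1.84% of tested genes), 167 (82.3%) were above 0 in the knockout, against 63.3% of all tested genes. Their median response was 0.38 log2 in the knockout and 1.20 in floxed mice. The median in floxed mice comes from the values that chose the genes and is inflated by that choice, so the gap is a description. In the knockout 43 of the 203 reached 1 log2. Of 46 genes called higher in the knockout (0.417% of tested genes), 37 (80.4%) were above 0 in floxed mice, against 58.6% of all tested genes, and their median was 2.08 in the knockout and 0.75 in floxed mice. Here the knockout median comes from the values that chose the genes and is inflated in the same way. It also rests on 1 averaged treated knockout sample. Of 31 genes called lower in floxed mice (0.281%), 20 (64.5%) were below 0 in the knockout, against 36.7% of all. Over all 11018 genes the responses of the genotypes had a Pearson correlation of 0.12 across genes, which are not independent replicates.

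Of 49 tested targets of PPARα, the receptor that senses fatty acids, 2 were called lower for the difference (Ehhadh and Acsl1; background 0.0998%) and none higher. The difference was above 0 in 13 of the 49 (26.5%), against 52.1% of all tested genes, and its median was -0.53 log2, against 0.02 over all of them. In floxed mice 24 members were called higher (background 1.84%) and in the knockout 6 (0.417%), all 6 among the 24. Of the 24, 23 were above 0 in the knockout, against 63.3% of all tested genes. Their median was 0.71 in the knockout and 1.51 in floxed mice. The floxed median comes from the values that chose the 24 and is inflated by that choice. Slc22a5, the carnitine importer, had 8.32, 7.14 and 7.53 TPM in treated knockout libraries, 4.03, 3.8 and 4.50 TPM in knockout controls, 32.8, 31.1 and 27.9 TPM in treated floxed libraries and 5.94, 6.17 and 4.38 TPM in floxed controls. Its difference of -1.59 did not pass (limma adjusted p = 0.0786), and it was chosen after its values were seen.

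Of 43 tested targets of CAR and PXR, the receptors that sense foreign compounds, 5 were called higher for the difference (Cyp2c29, Cyp2c37, Cyp2c50, Gsta1 and Ces2c; background 0.0998%) and none lower. Reads can be split between Cyp2c37 and Cyp2c50, and between Gsta1 and its near copies, among them the list member Gsta2. The 5 are therefore not independent members. The difference was above 0 in 29 of the 43 (67.4%), against 52.1% of all tested genes, with a median of 0.51. In the knockout 11 members were called higher with the drug (background 0.417%), and in floxed mice 6 (1.84%). Without the drug 13 members were called lower in the knockout than in floxed mice (background 1.92%) and 1 higher (1.83%). Cyp2c55 and Cyp2c54, named after their values were seen, had differences of 2.84 and 1.96 that did not pass (limma adjusted p = 0.0871 and 0.102). Por, the electron donor of the P450 enzymes, was at -1.46 (0.283) and was likewise chosen after its values were seen.

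Of 29 lipogenesis genes, 2 were called higher (Thrsp and Lpin1, background 0.0998%) and 1 lower (Aacs, background 0.0998%), with a median of -0.07. Scd1, the stearoyl-CoA desaturase, had 6801, 6738 and 6814 TPM in treated knockout libraries, 259, 241 and 489 TPM in knockout controls, 2068, 1986 and 3589 TPM in treated floxed libraries and 917, 935 and 1072 TPM in floxed controls. Every treated knockout library exceeded all others, and knockout controls were lowest. Its difference of 3.14 (95% interval 1.85 to 4.43) did not pass (limma adjusted p = 0.104). Lists of LXR targets (12 tested members), bile acid genes (26), cholesterol synthesis genes (26), retinoid metabolism genes (20), clock genes (18), acute phase genes (35), complement and coagulation genes (34) and hepatocyte transcription factors (22) had no member called for the difference. Their medians were -0.09, 0.45, 0.06, 0.20, -0.36, -0.14, -0.15 and -0.34 log2. Without knockout control 5 (background 1.91%) the clock list had 5 called members, bile acid genes 5, acute phase genes 3, hepatocyte transcription factors 3, LXR targets 2, retinoid metabolism genes 2, cholesterol genes 1 and complement and coagulation genes 0. The median of the acute phase list was then 0.28, on the other side of 0. Cidec, Aass, Thrsp and Gsta1 were each the only called member of another list. In that order, these were lipid droplet and lipoprotein genes, amino acid enzymes, thyroid hormone responsive genes and NRF2 targets. The background was 0.2% in either direction.

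**Figure D4:**
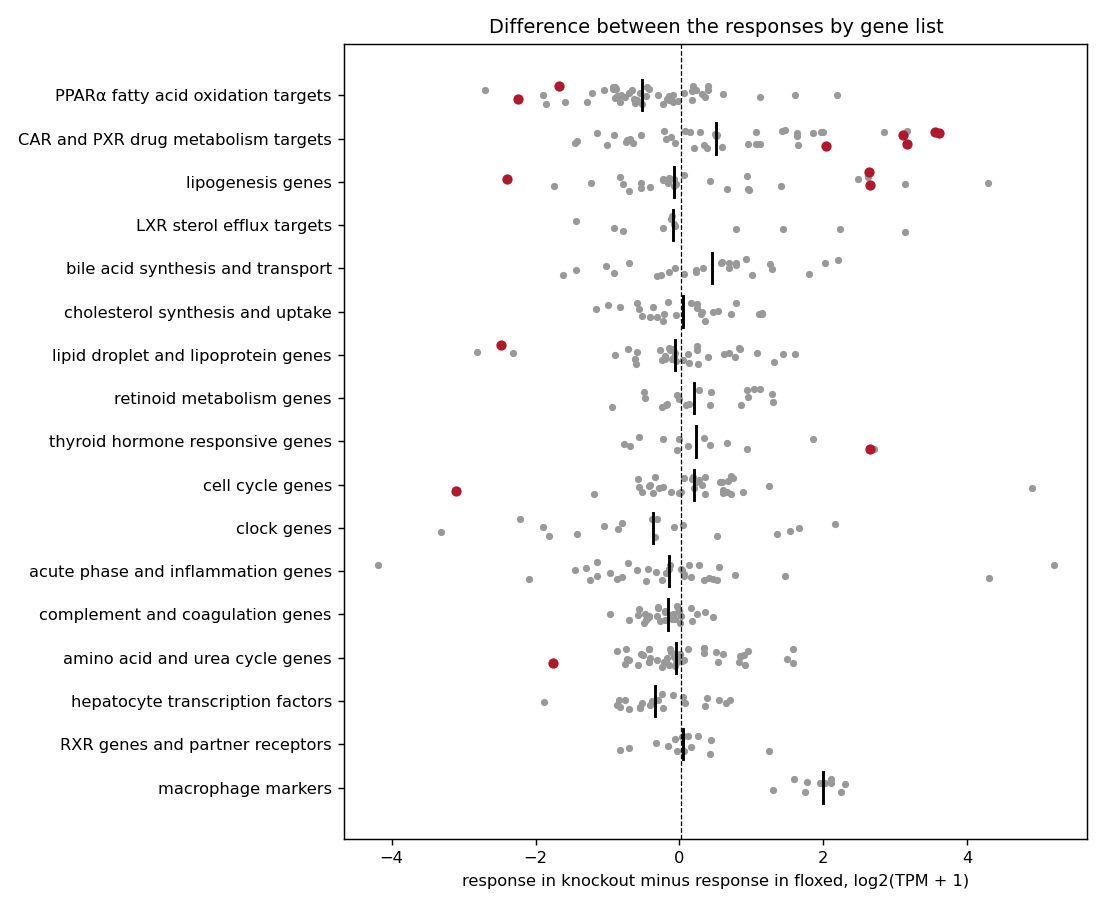
Response in the knockout minus response in floxed mice, log2(TPM + 1), for the tested members of 17 gene lists. Each point is a gene, red where the difference was called, and the short black line is the list's median. The dashed line is at 0.02, the median of all tested genes. PPARα targets centre on -0.53, CAR and PXR targets on 0.51 and the 10 macrophage markers on 1.99, and no macrophage marker was called.

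Library features moved with the quantity tested. All 8 hepatocyte markers were tested and summed to 64410 to 66600 TPM in treated knockout libraries, 67070 to 77410 in knockout controls, 55550 to 59230 in treated floxed libraries and 63930 to 71080 in floxed controls. RNA of other cell types was also present. Of 12 macrophage markers 10 were tested, and all 10 had a difference above 0, with a median of 1.99 and no call. Their summed level was 72.4 to 82.4 TPM in treated knockout libraries, 16.1 to 37.7 in knockout controls, 20.3 to 72.5 in treated floxed libraries and 28.4 to 97.5 in floxed controls. No macrophage marker was at 0 in all libraries. Clec4f, a Kupffer cell lectin, had 17.5, 14.4 and 15.5 TPM in treated knockout libraries, 1.76, 3.68 and 6.11 TPM in knockout controls, 4.25, 4.61 and 14.4 TPM in treated floxed libraries and 4.09, 4.91 and 16.4 TPM in floxed controls. In bulk RNA fewer cells of a type and less RNA per cell cannot be told apart. The summed level of 4 erythroid markers was 626 to 719 TPM in treated knockout libraries, 211 to 403 in knockout controls, 229 to 601 in treated floxed libraries and 208 to 661 in floxed controls. The part of these markers in the called genes was not tested.

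Clock genes set the libraries apart as well. Dbp, a clock output gene that peaks late in the light phase, had 19.2, 19.3 and 17.3 TPM in treated knockout libraries, 44.5, 33.4 and 1.04 TPM in knockout controls, 22.9, 25.5 and 45.0 TPM in treated floxed libraries and 1.58, 1.40 and 1.15 TPM in floxed controls. Arntl, the clock activator that is high when Dbp is low, had 3.90, 4.29 and 4.25 TPM in treated knockout libraries, 1.64, 2.84 and 13.4 TPM in knockout controls, 1.26, 1.68 and 0.80 TPM in treated floxed libraries and 7.54, 8.32 and 10.45 TPM in floxed controls. Knockout control 5 therefore resembled the floxed controls in these genes, and knockout controls 1 and 2 the treated floxed libraries. Any difference in sampling time between groups cannot be told apart from drug and genotype.

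Without knockout control 5 the difference was called for 210 genes (1.91% of those tested), 105 in each direction (0.953% each). For 18 of the 22 genes called with it, knockout control 5 was nearer to knockout controls 1 and 2 than to the treated knockout. That call favours genes in which the knockout controls lie close together, so this count is no check on knockout control 5. Among 18 clock genes, knockout control 5 was nearer to knockout controls 1 and 2 in 7. Of 670 genes whose treated knockout level was at least 1 log2 from knockout controls 1 and 2, it was nearer to these controls in 360. The genes named next were chosen after their values were seen. Elovl3, a fatty acid elongase, had 57.3, 53.7 and 53.8 TPM in treated knockout libraries, 2.94, 1.86 and 368 TPM in knockout controls, 88.0, 90.3 and 75.9 TPM in treated floxed libraries and 416, 462 and 523 TPM in floxed controls. Its difference was 4.29 with knockout control 5 (limma adjusted p = 0.707) and 6.55 without it. Dbp was at -3.32 with it (adjusted p = 0.645) and -4.75 without, and Arntl at 2.16 (0.555) and 2.88, by the same limma fits. Elovl3, Dbp and Arntl were all called without it. PPARα targets then had 1 call upward and 6 downward. The CAR and PXR list had 9 and 1, and lipogenesis genes 6 and 2.

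**Figure D5:**
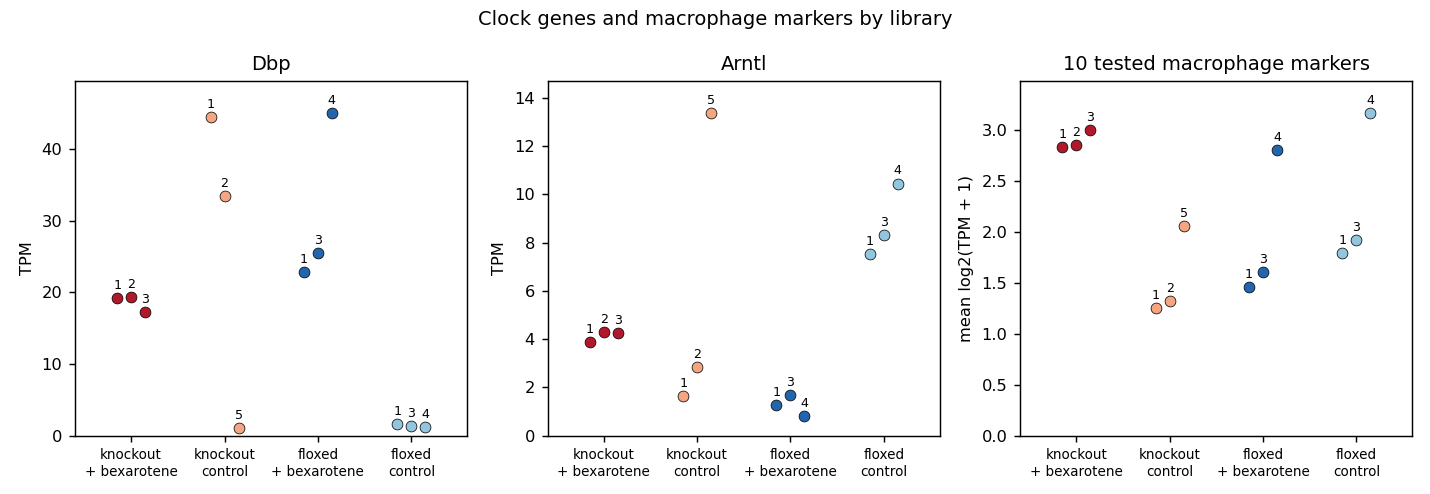
Dbp and Arntl in TPM and the mean log2(TPM + 1) of 10 macrophage markers in each library, by group. Numbers are the library numbers of the table's columns. Knockout control 5 is at 1.04 TPM Dbp against 44.5 and 33.4 TPM in knockout controls 1 and 2, and the macrophage mean is highest in treated knockout libraries and floxed control 4.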

How the data were processed

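RNA from 12 liver cell libraries was extracted with TRIzol and made into libraries with a stranded mRNA kit, per the labels' protocols. Reads went through fastp, HISAT2 and StringTie, per the submitters' processing notes. Tool versions and the build of the genome are not given in the sources used here. TPM values were deposited by the authors for 26748 Ensembl identifiers; 21810 were given symbols. Counts were not used, so depth is unknown. Column numbers differ from the replicate numbers of the titles, and a column was given a group but no title; 0 value columns were unused. The members and gene lists were chosen with earlier results of these data known.

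Within a group, libraries whose log2 spread beyond counting noise was under 0.1 (genes of at least 10 TPM, 20 expression classes) were averaged, a limit taken over with the earlier results. Genes that reached 1 TPM in 3 or more libraries were fitted over all 4 groups as log2(TPM + 1) with limma 3.58.1 in R 4.3.3 (eBayes with trend, 5 residual and 3.22 prior degrees of freedom), and adjusted by Benjamini-Hochberg over 11018 genes. The pseudocount understates changes of low genes. Called genes were classed by the ratio of knockout to floxed response: lost up to 0.25 in size, gained from 4, reversed between these with opposite signs, otherwise reduced below 1 or enlarged above. Named genes were the 3 RXR genes, the 12 most positive and 12 most negative called differences with at least 5 TPM in the highest group, up to 5 per class, up to 8 called in both genotypes and, per list, up to 4 called members or the 2 of highest TPM. Not all are printed, a gene is not reported here, and names outside the rule are marked. Promoters are from RefSeq (GRCm38.p6). The alternatives were another pseudocount, other filters and scalings, no variance trend, separate libraries and leaving out each library. After the data were seen, a block of column numbers and leaving out library 4 of both floxed groups were added.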

Additional observations from a re-analysis of the deposited data

Results flagged for a closer look

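The response to bexarotene differed between knockout and floxed mice by a test of the difference itself (the interaction term in limma, adjusted p under 0.05) in 22 genes. On the log2(TPM + 1) scale, knockout response minus floxed response, the difference was -3.10 for Ccnd1, -2.94 for Maats1os, -2.55 for Slc16a5, -2.48 for Cidec, -2.39 for Aacs, -2.37 for Pla2g6, -2.32 for Alpl, -2.25 for Ehhadh, -1.96 for Gpat3, -1.76 for Aass and -1.68 for Acsl1. It was 1.85 for Ces1g, 2.04 for Cyp2c50, 2.29 for Mgst2, 2.63 for Lpin1, 2.65 for Thrsp, 3.11 for Ces2c, 3.16 for Cyp2c37, 3.55 for Gsta1, 3.61 for Cyp2c29, 3.89 for Gm3776 and 3.02 for 1 gene with no name. The fitted values of Maats1os and Mgst2 depend on the pseudocount, since whole groups are listed at 0 TPM. No group had the 4 samples needed to look for a library far from the rest.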

How the results depend on the processing

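No difference of the 22 genes turned its sign under any alternative in which it was tested. With the 12 libraries as separate samples 651 genes were called, 285 higher and 366 lower in the knockout (125 lost, 35 reduced, 345 reversed, 15 enlarged, 131 gained), and 206 were called in both genotypes with no difference called; the 22 were among the 651. With no filter on low values 689 were called, 636 higher and 53 lower (42 lost, 4 reduced, 53 reversed, 2 enlarged, 588 gained), which moved the share called higher to 92.3%, against 50% with the filter. A pseudocount of 0.1 TPM gave 18 calls, of which 14 were among the 22 (5 lost, 2 enlarged). Ccnd1, Aass, Gm3776, Cidec, Gpat3, Maats1os, Mgst2 and the gene with no name were not called then. Quantile normalization gave 25 calls and median scaling 23, each with 5 reversed. The filter of 5 TPM gave 18 calls and the fit with no variance trend 25. Leaving out 1 library or averaged sample at a time gave 6 to 210 calls (3 to 105 higher, 3 to 105 lower), with 1 to 26 lost, 1 to 7 reduced, 0 to 123 reversed, 1 to 5 enlarged, 2 to 49 gained and 7 to 54 called in both. The highest count came without knockout control 5 and the lowest without treated floxed library 1. Without floxed controls 1 and 3 there were 13 calls, 4 of them lower and 1 lost, and 11 called in both. Where an arm is left with 1 sample, it is assumed to vary like the others. The causes of these changes were not tested.

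Added after seeing the data, a fit of the 12 libraries with the column numbers within a genotype as a replicate block (3 residual degrees of freedom) called 1023 genes, 459 higher and 564 lower (127 lost, 33 reduced, 590 reversed, 35 enlarged, 238 gained), with 164 called in both and all 22 among the 1023. Column numbers differ from the replicate numbers of the titles. Deviations of same-numbered libraries from their group means correlated across genes at 0.0361, 0.00529 and 0.143 in floxed pairs 1, 3 and 4. In knockout pairs 1 and 2 they correlated at 0.00712 and 0.0624. Floxed library 4 correlated best with its own number, against -0.16 to -0.00359 in the other pairs with a library 4. Not every library did so, and the treated knockout libraries are near copies. The check therefore cannot decide whether libraries with the same number were paired. Without library 4 of both floxed groups 0 genes were called, in any class, and 8 were called in both genotypes. Limits are the unknown depth, 1 averaged treated knockout sample, the wide spread of knockout controls and the near-identical Cyp2c, Cyp4a, Acot and Gsta genes. At an unadjusted p under 0.05, 1029 genes differed.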

Other observations

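Some genes outside the called set had a high level in the treated knockout that knockout control 5 shared and knockout controls 1 and 2 did not. They were chosen after their values were seen, and their cause was not tested. Igfbp1, a fasting-induced binding protein of insulin-like growth factors, had 921, 896 and 915 TPM in treated knockout libraries, 51.6, 64.7 and 939 TPM in knockout controls, 92.2, 78.4 and 120.5 TPM in treated floxed libraries and 59.7, 62.0 and 142 TPM in floxed controls. Sult1e1, which sulfates oestrogens, had 155, 147 and 142 TPM in treated knockout libraries, 1.99, 4.22 and 159 TPM in knockout controls, 0.64, 0.41 and 0.72 TPM in treated floxed libraries and 0.40, 0.25 and 0.25 TPM in floxed controls. All treated knockout libraries and knockout control 5 were therefore above every floxed library in both genes. With knockout control 5 the differences between responses were 2.58 for Igfbp1 and 3.16 for Sult1e1 (limma adjusted p = 0.716 and 0.732), and without it 3.92 and 4.94, both then called.

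Cdkn1a, the p21 inhibitor of the cell cycle, had 70.4, 64.0 and 69.7 TPM in treated knockout libraries, 3.08, 1.99 and 71.9 TPM in knockout controls, 27.1, 26.6 and 6.38 TPM in treated floxed libraries and 74.0, 73.5 and 72.6 TPM in floxed controls. Here knockout control 5 matched the floxed controls as well as the treated knockout. Its difference was 4.90 with knockout control 5 (limma adjusted p = 0.504) and 6.36 without it, then called.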
